A study of Homo sapiens with 6 samples.

Results

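The expressed protein-coding and noncoding genes of human chromosome 21 were described in 22Rv1, a long-established line of human prostate cancer cells. They were the genes assigned to chromosome 21 in the count tables with a mean of at least 1 CPM (counts scaled to the library total) over the 6 libraries, ordered by start position, with 12 genes and 6 gene families left out by name. The rule gave 145 genes, 108 of them protein-coding, out of 826 chromosome 21 genes listed and 14840 genes over the same floor on all chromosomes. Another 648 chromosome 21 genes lay under the floor, and 16 of the 33 genes left out by name lay over it. The genes were thus chosen by their mean level over both groups, not by the difference, but the chromosome was taken up with its difference between the groups already known, so counts over these genes are a description and not a test. DNA copy number was not measured; every value is RNA.

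The study holds 2 groups of 3 libraries each. LV is 22Rv1 derived from a liver metastasis, and WT is the wild-type 22Rv1 control. Both grew in RPMI-1640 with 10% FBS, and polyA RNA was sequenced as paired reads. The labels call the libraries of a group biological replicates without saying that they were separate cultures or separate derivations, so LV may be 1 derived population, and p-values measure the spread between these libraries, which may be technical. The series title concerns PSMA heterogeneity in metastatic prostate cancer.

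Chromosome 21 is the smallest human autosome, and its long arm carries nearly all of its protein-coding genes. An extra copy causes Down syndrome, in which most of its expressed genes are raised together, and the chromosome holds a cluster of interferon receptor genes, the superoxide dismutase gene SOD1, the nucleosome-binding gene HMGN1, the kinase gene DYRK1A and the purine synthesis gene GART. Gains and losses of whole chromosomes are frequent in cancer cell lines.

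Library totals ranged from 28395265 to 53275252 counts in LV and from 46031158 to 50934457 in WT. WT replicate 2 stood apart: for genes averaging 50 counts or more, the chi-square per degree of freedom was 55.7 and 62.7 against the other WT libraries, 2.26 between those, and at most 3.15 within LV. All 8 prostate epithelium markers were at 1 CPM or more, with sums of 3278 to 3345 CPM in LV and 3439 to 3603 CPM in WT. Of 8 hepatocyte markers, ALB alone reached 1 CPM (65.8 CPM in LV, 47.7 CPM in WT), and the sums were 65.5 to 68.7 CPM in LV and 41.8 to 52.5 CPM in WT. Of 7 fibroblast and endothelium markers, VIM alone reached a mean of 1 CPM over all libraries (14.0 CPM in LV, 26.0 CPM in WT), with sums of 10.7 to 18.7 CPM in LV and 25.2 to 32.0 CPM in WT and CDH5 at 0 in every library. Of 5 leukocyte markers, PTPRC and LYZ reached 1 CPM, with sums of 11.9 to 19.7 CPM in LV and 11.1 to 15.3 CPM in WT and CD3E at 0 in every library. The part of these marker differences in the results below was not tested.

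Promoter windows of 5 genes are printed because they show both directions of difference at well-expressed genes: HMGN1, GART and IFNGR2 were higher in LV, and LSS and PRMT2 were lower. Each is the RefSeq window of GRCh38.p14 from 250 bases before to 50 bases after the gene start given by RefSeq. Upstream sequence and first exon are meant relative to that start. For HMGN1, GART, IFNGR2 and PRMT2, the gene as counted starts further upstream, so the whole window lies inside its span. The windows lie at chr21:39349039-39349338 (HMGN1, minus strand), chr21:33542843-33543142 (GART, minus), chr21:33403163-33403462 (IFNGR2, plus), chr21:46228725-46229024 (LSS, minus) and chr21:46635424-46635723 (PRMT2, plus). Capitals mark, on either strand, the GC box letters GGGCGG, the CAAT box letters CCAAT, the TATA box letters TATAAA and the ETS-type letters CCGGAAG.
HMGN1: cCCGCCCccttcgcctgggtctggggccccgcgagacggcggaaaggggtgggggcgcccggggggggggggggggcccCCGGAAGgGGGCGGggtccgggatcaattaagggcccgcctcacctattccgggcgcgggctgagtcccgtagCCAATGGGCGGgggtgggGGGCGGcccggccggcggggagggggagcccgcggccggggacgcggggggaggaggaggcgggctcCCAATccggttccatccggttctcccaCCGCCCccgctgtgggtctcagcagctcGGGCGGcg
GART: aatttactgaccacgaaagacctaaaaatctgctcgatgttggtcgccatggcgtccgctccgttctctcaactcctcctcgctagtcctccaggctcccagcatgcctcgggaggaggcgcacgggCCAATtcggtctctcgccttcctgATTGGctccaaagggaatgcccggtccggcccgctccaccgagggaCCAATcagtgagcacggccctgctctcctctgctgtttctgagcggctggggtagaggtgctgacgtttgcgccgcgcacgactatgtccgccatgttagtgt
IFNGR2: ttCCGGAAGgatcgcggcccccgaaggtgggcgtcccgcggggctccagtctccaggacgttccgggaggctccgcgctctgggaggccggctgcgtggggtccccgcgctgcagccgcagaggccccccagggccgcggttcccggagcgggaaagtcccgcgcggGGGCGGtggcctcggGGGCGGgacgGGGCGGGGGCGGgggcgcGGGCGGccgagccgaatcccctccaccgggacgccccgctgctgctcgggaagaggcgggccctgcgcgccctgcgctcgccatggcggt
LSS: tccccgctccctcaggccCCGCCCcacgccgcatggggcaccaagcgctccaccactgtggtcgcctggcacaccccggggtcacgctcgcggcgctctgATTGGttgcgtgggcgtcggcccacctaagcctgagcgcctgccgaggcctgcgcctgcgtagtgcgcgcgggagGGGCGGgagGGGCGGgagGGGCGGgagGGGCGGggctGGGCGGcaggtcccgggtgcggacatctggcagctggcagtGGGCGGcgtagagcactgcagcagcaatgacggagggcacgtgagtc
PRMT2: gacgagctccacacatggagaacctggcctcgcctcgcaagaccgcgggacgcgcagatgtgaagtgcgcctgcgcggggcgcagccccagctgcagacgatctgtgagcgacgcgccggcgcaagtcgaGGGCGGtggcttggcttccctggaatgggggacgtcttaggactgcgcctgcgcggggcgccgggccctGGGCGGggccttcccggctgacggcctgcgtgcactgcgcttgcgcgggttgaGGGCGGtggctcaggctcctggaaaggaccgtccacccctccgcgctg
HMGN1 held 6 matches to GGGCGG, 2 to CCAAT and 1 to CCGGAAG, and IFNGR2 held 5 to GGGCGG and 1 to CCGGAAG. LSS held 7 matches to GGGCGG and 1 to CCAAT, PRMT2 held 3 to GGGCGG, and GART held 3 to CCAAT and none of the others. No match of 1 motif overlapped a match of another.

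Chromosome 21 RNA was higher in LV. Of the 145 genes, 104 (71.7%) were higher in LV, 12 (8.28%) were lower and 29 did not pass (edgeR's quasi-likelihood test, threshold of 0.05 for the p adjusted by Benjamini-Hochberg over all 19255 genes tested). Over all genes tested, 17.5% were called higher and 21.3% lower, 38.8% in either direction. All 145 genes passed the filter on low counts. The median difference was 0.59 on the log2 scale, a 1.51-fold higher level in LV, with quartiles of 0.28 and 0.79, against a median of -0.0075 and quartiles of -0.33 and 0.26 over all genes tested. A fitted value above 0 was found for 122 of the 145. In bulk RNA such as this, fewer cells of a type and less RNA per cell cannot be told apart.

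The counts of the 145 genes added up to 8259, 8266 and 8336 CPM in LV replicates 1 to 3 and to 5547, 5401 and 5522 CPM in WT replicates 1 to 3. The means were 8287 ± 42.7 CPM in LV and 5490 ± 77.7 CPM in WT (SD, n = 3 each), a ratio of 1.51. The groups were far apart compared with the spread inside either. As a share of all counts, the genes took 0.810, 0.813 and 0.817% in LV, against 0.572, 0.533 and 0.572% in WT. Every LV library lay above every WT library for 112 genes, every LV library lay below for 16, and the groups overlapped for 17. Over all genes tested, 26.1% had all LV libraries above and 27.9% had all LV libraries below.

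The differences were mostly of moderate size. A log2 difference between 0.25 and 1 was fitted for 91 of the 145 genes (62.8%), against 21% of all genes tested. At least 2-fold higher levels that passed the test were found for 22 genes and at least 2-fold lower levels for 5, against 4.49% and 9.32% of all genes tested. Among 14638 genes of the other autosomes and X at the same floor, 509 and 1061 did so. The 5 lower genes other than LINC01694 reached the floor through WT alone. Among the 22, CR382285.1, RUNX1, DSCR8, IGSF5, PCP4 and TSPEAR reached it through LV alone. Protein-coding genes had 85 higher, 6 lower and 17 that did not pass, with a median of 0.63. The 37 genes of other kinds had 19 higher, 6 lower and 12 that did not pass, with a median of 0.34.

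**Figure D1:**
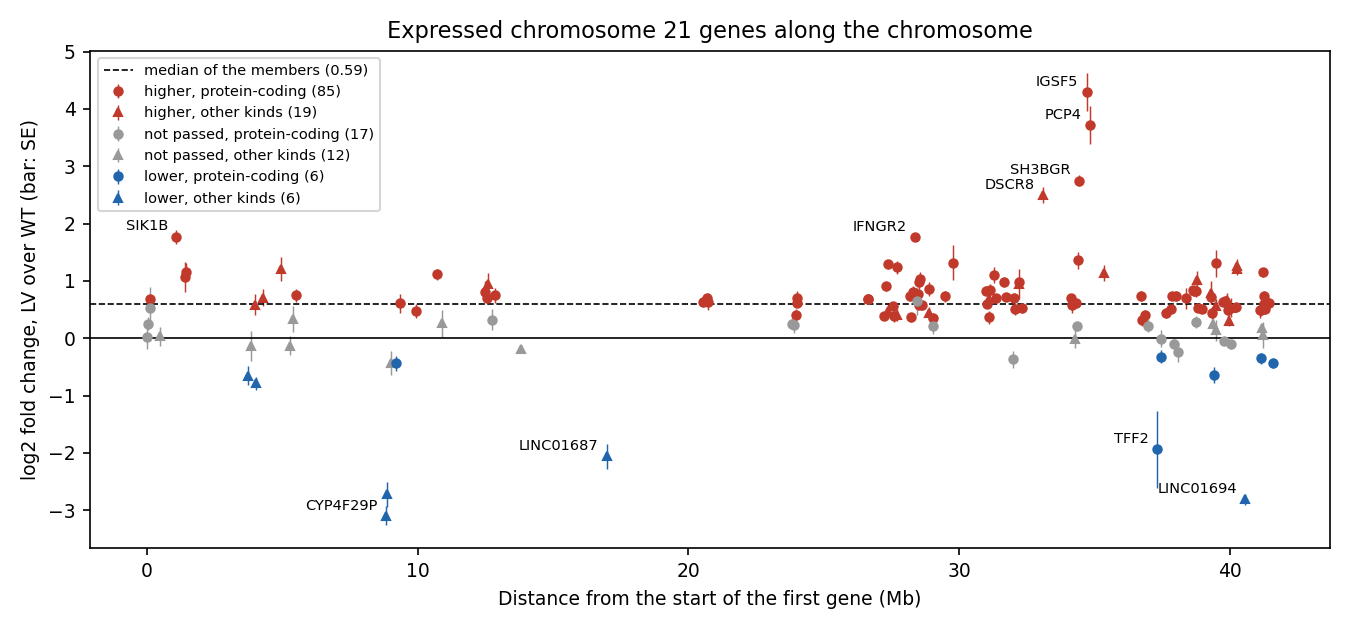
Fitted log2 fold change (LV over WT, bars are SE) of each of the 145 genes against the distance of its start from that of the first gene in Mb; circles are protein-coding genes, triangles other kinds, and colour gives the call. Most points gather around the dashed median of 0.59, with IGSF5, PCP4, SH3BGR and DSCR8 far above it and CYP4F29P, LINC01694 and LINC01687 far below 0.

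No other chromosome had a like median. Counting the genes left out by name, 161 chromosome 21 genes reached the floor, of which 111 (68.9%) were higher in LV and 17 lower, with a median log2 difference of 0.58. The next highest median was 0.084 on chromosome 12, and the lowest was -0.12 on chromosome 3. The share of genes called higher on the other autosomes and X lay between 10.9% and 27.5%. Together, 14638 genes of those chromosomes at the same floor had 2814 higher and 3262 lower, with a median of -0.0057 and quartiles of -0.27 and 0.22.

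**Figure D2:**
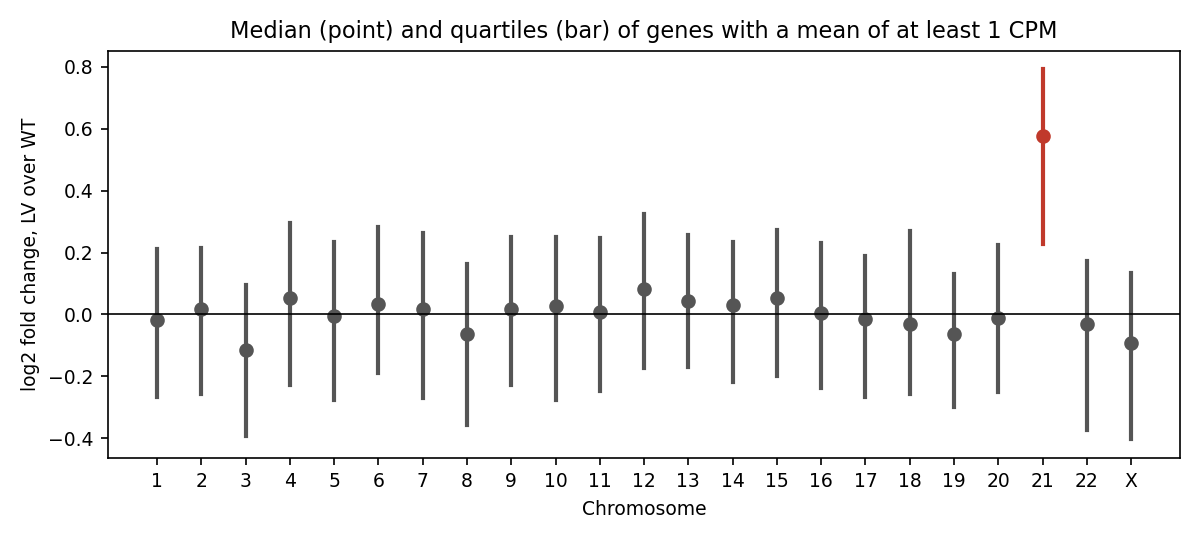
Median (point) and quartiles (bar) of the fitted log2 fold change, LV over WT, for genes with a mean of at least 1 CPM on each autosome and X. Chromosome 21, in red, has a median of 0.58, and its lower quartile lies above the median of every other chromosome.

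The genes are next described in lists by role. Over all 108 protein-coding genes, 78.7% were higher in LV, with a median of 0.63, and no list was tested against that share. The interferon and cytokine receptor genes on the long arm were all higher in LV, 4 of 4, with a median log2 difference of 0.78. IFNGR2, the accessory chain of the interferon gamma receptor, had 89.1, 96.0 and 92.5 CPM in LV replicates 1 to 3 and 27.3 CPM in each WT library. Its means were 92.5 ± 3.43 CPM in LV and 27.3 ± 0.0161 CPM in WT (SD, n = 3 each). The log2 fold change was 1.76 (SE 0.070, edgeR adjusted p = 1.8e-07). The groups did not overlap, and the difference was the largest of the 4. Its exons overlap those of TMEM50B on the other strand, itself at 91.6 CPM in LV and 54.4 CPM in WT, and the strand setting of the counting is not given in the sources used here.

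IFNAR1 and IFNAR2 encode both chains of the receptor for type I interferons. IFNAR1 had 106, 109 and 112 CPM in LV and 66.7, 53.9 and 65.8 CPM in WT, a log2 fold change of 0.81 (edgeR adjusted p = 0.00014). IFNAR2 was lower in level, with 16.9, 16.6 and 19.2 CPM in LV and 10.4, 10.0 and 11.1 CPM in WT, a log2 fold change of 0.74 (edgeR adjusted p = 0.00021). IL10RB, a chain shared by receptors of the interleukin 10 family and of type III interferons, had 20.7, 20.5 and 21.5 CPM in LV and 15.4, 17 and 16.4 CPM in WT. Its log2 fold change of 0.36 was the smallest of the receptor genes (edgeR adjusted p = 0.0055). LV libraries were above WT libraries without overlap for all 4 genes.

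Genes of mitochondrial proteins were all higher in LV, 5 of 5, with a median of 0.70. ATP5PF, which encodes coupling factor 6 of the ATP synthase, had 156, 161 and 159 CPM in LV and 97.2, 98.6 and 96.8 CPM in WT, a log2 fold change of 0.70 (SE 0.063, edgeR adjusted p = 2.7e-05). ATP5PO, the subunit that joins the peripheral stalk of the same enzyme to its catalytic head, averaged 98.7 ± 2.20 CPM in LV and 54.3 ± 10.0 CPM in WT (SD, n = 3 each). NDUFV3, an accessory subunit of complex I, averaged 93.9 CPM in LV and 56.5 CPM in WT. MRPL39, of the large mitochondrial ribosomal subunit, averaged 59.2 CPM in LV and 38.4 CPM in WT. MRPS6, of the small subunit, averaged 27.5 CPM in LV and 21.6 CPM in WT, a log2 fold change of 0.35 that lost its call without LV replicate 2 (adjusted p = 0.064) or 3 (adjusted p = 0.054).

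Redox and carbonyl genes were also higher, 4 of 4, with a median of 0.65. SOD1, the cytosolic copper and zinc superoxide dismutase, had 422, 423 and 427 CPM in LV and 248, 294 and 245 CPM in WT. The LV libraries were close together, WT replicate 2 was the highest of its group, and the log2 fold change was 0.69 (SE 0.082, edgeR adjusted p = 0.00018). CBR1 and CBR3 encode carbonyl reductases. CBR1 averaged 70.3 ± 0.340 CPM in LV and 46.4 ± 3.38 CPM in WT (SD, n = 3 each). CBR3 averaged 13.0 CPM in LV and 10.1 CPM in WT, and its call (adjusted p = 0.028 in all libraries) was lost on leaving out any single library other than WT replicate 2, with adjusted p-values of 0.052 to 0.10. CRYZL1, a relative of quinone oxidoreductases, averaged 41.5 CPM in LV and 20.2 CPM in WT, a log2 fold change of 1.04.

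Among metabolic enzymes, 9 of 10 were higher in LV and 1 was lower, with a median of 0.71. GART, the trifunctional enzyme of purine synthesis whose promoter is printed above, had 263, 264 and 258 CPM in LV and 158, 142 and 161 CPM in WT, a log2 fold change of 0.77 (edgeR adjusted p = 3.6e-05). PDXK, the kinase that makes the active form of vitamin B6, averaged 195 ± 0.499 CPM in LV and 110 ± 11.3 CPM in WT (SD, n = 3 each). AGPAT3, an acyltransferase of phospholipid synthesis, averaged 230 CPM in LV and 159 CPM in WT. CBS, which makes cystathionine from homocysteine, averaged 30.4 CPM in LV and 18.3 CPM in WT.

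LSS, the lanosterol synthase of cholesterol synthesis, was the exception among the enzymes. It had 108, 107 and 106 CPM in LV and 127, 157 and 125 CPM in WT, a log2 fold change of -0.35 (edgeR adjusted p = 0.019). LV was below WT in every library. The call was lost on leaving out LV replicate 1, 2 or 3, with adjusted p-values of 0.068, 0.077 and 0.077, while the fitted value stayed between -0.33 and -0.35 in those fits.

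The transcription factor and chromatin list had 11 of 14 higher and 1 lower, with a median of 0.60. HMGN1, which binds nucleosomes and opens chromatin, had the highest counts of all 145 genes relative to library size, with 610, 599 and 613 CPM in LV and 405, 374 and 405 CPM in WT. Its log2 fold change was 0.62 (SE 0.064, edgeR adjusted p = 6.4e-05). CHAF1B, a subunit of chromatin assembly factor 1, averaged 116 CPM in LV and 71.4 CPM in WT. PAXBP1 averaged 136 ± 5.02 CPM in LV and 57.7 ± 9.45 CPM in WT (SD, n = 3 each), and MORC3, a nuclear ATPase of the MORC family, averaged 27.3 CPM in LV and 12.7 CPM in WT. RUNX1, a regulator of blood cell development, had 1.47, 2.22 and 1.85 CPM in LV and 0.906, 0.375 and 0.891 CPM in WT, so that its WT mean was under the floor.

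PRMT2, an arginine methyltransferase and the last of the genes by position, was lower in LV. It had 49.2, 48.0 and 49.8 CPM in LV and 63.7, 73.0 and 61.9 CPM in WT, a log2 fold change of -0.43 (SE 0.082, edgeR adjusted p = 0.0029). The groups did not overlap. PKNOX1 and ZBTB21 did not pass: PKNOX1, a homeodomain factor, had 25.8, 25.6 and 23.8 CPM in LV and 28.2, 25.8 and 26.3 CPM in WT, and ZBTB21 averaged 22.2 CPM in LV and 19.0 CPM in WT. Without WT replicate 2, PKNOX1 was called lower (log2 fold change -0.12, adjusted p = 0.042).

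**Figure D3:**
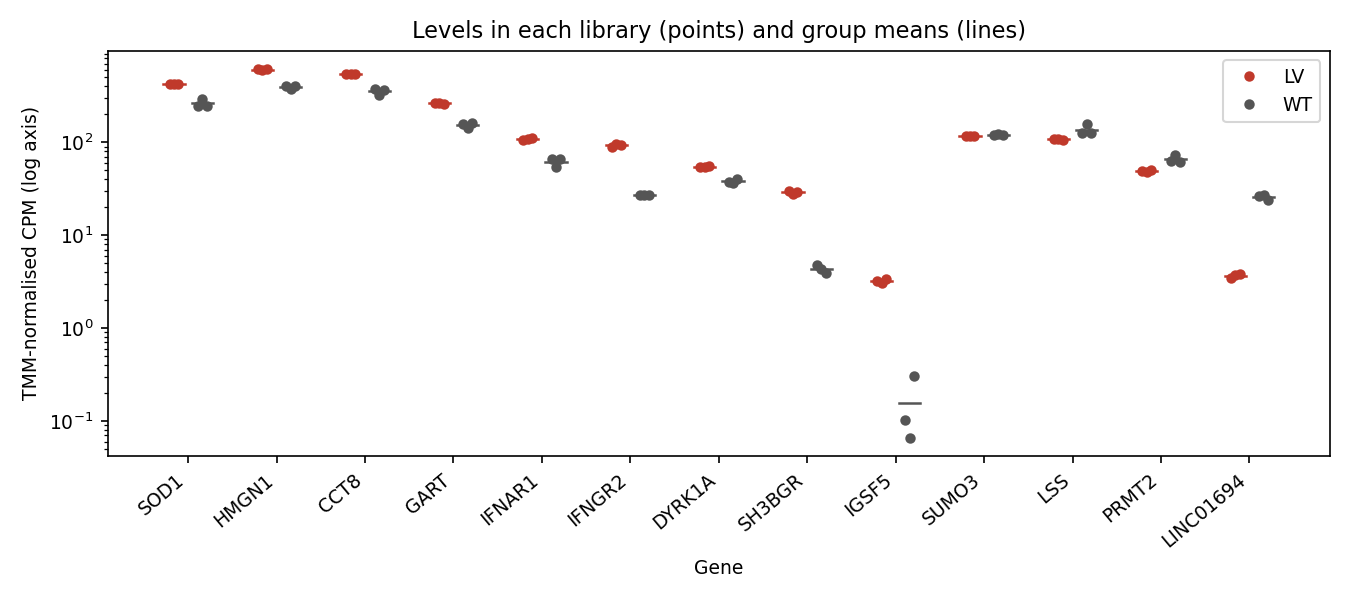
TMM-normalised CPM on a log axis of 13 of the genes in each of the 3 LV (red) and 3 WT (grey) libraries, with lines at the group means. LV points lie above WT points for SOD1 to IGSF5, nearly level with them for SUMO3, and below them for LSS, PRMT2 and LINC01694.

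RNA processing, tRNA modification and ribosome biogenesis genes had 8 of 12 higher and 1 lower, with a median of 0.63. SON, a splicing factor of nuclear speckles, averaged 421 ± 12.7 CPM in LV and 282 ± 10.6 CPM in WT (SD, n = 3 each). RRP1B, a nucleolar protein of ribosome assembly, had 149, 144 and 149 CPM in LV and 82.6, 82.9 and 82.1 CPM in WT, a log2 fold change of 0.84 (edgeR adjusted p = 9.8e-06). Its relative RRP1 averaged 118 CPM in LV and 66.5 CPM in WT, and URB1, also of ribosome assembly, averaged 83.4 CPM in LV and 44.5 CPM in WT. RBM11, a tissue-restricted splicing regulator, was called lower, with 4.29, 4.30 and 4.68 CPM in LV and 6.69, 4.89 and 6.35 CPM in WT. Its adjusted p of 0.029 became 0.062 to 0.10 on leaving out any single library other than WT replicate 2. ADARB1, an RNA editing enzyme, averaged 18.5 CPM in LV and 19.9 CPM in WT and did not pass (adjusted p = 0.33); N6AMT1 and U2AF1 did not pass either, but N6AMT1 was called higher without WT replicate 2 (log2 fold change 0.19, adjusted p = 0.0085).

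Genes of ubiquitin, SUMO, chaperone and protease control had 7 of 10 higher and none lower, with a median of 0.61 (no member was lower at an unadjusted p under 0.05, nor by DESeq2 or limma-voom). CCT8, a subunit of the chaperonin that folds actin and tubulin, had 543, 546 and 541 CPM in LV and 371, 325 and 370 CPM in WT. UBE2G2, a ubiquitin-conjugating enzyme of protein quality control at the endoplasmic reticulum, averaged 222 ± 0.366 CPM in LV and 143 ± 3.38 CPM in WT (SD, n = 3 each). TTC3, a ubiquitin ligase, averaged 272 CPM in LV and 190 CPM in WT. USP25, a deubiquitinase, had the largest difference of the list, with 43.0, 46.4 and 45.0 CPM in LV and 22.8, 18.5 and 20.8 CPM in WT (log2 fold change 1.11, edgeR adjusted p = 2.0e-05).

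SUMO3, a ubiquitin-like modifier, stood out for its level without a difference that passed. It had 118, 116 and 117 CPM in LV and 119, 123 and 119 CPM in WT, a log2 fold change of -0.040 (SE 0.063, edgeR adjusted p = 0.65). CSTB, an inhibitor of cathepsins, averaged 77.1 ± 3.87 CPM in LV and 63.6 ± 9.07 CPM in WT (SD, n = 3 each) and did not pass (adjusted p = 0.063). WT replicate 2 held 74.0 CPM of it against 58.3 CPM in each of the other WT libraries, and without that library the log2 fold change of CSTB was 0.41 (adjusted p = 7.12e-12). It also passed with DESeq2 (adjusted p = 0.031) and limma-voom (adjusted p = 0.049). LTN1, a ligase of ribosome quality control, averaged 22.9 CPM in LV and 19.6 CPM in WT and did not pass.

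The kinase and signalling list was higher in all 7 of its members, with a median of 0.70. DYRK1A, a kinase tied to brain development in Down syndrome, had 54.1, 54.6 and 55.4 CPM in LV and 37.7, 36.4 and 40.5 CPM in WT, a log2 fold change of 0.52 (edgeR adjusted p = 0.00048). RCAN1, an inhibitor of the phosphatase calcineurin, averaged 9.18 CPM in LV and 5.52 CPM in WT. TRPM2, a calcium channel opened by ADP-ribose, averaged 78.8 CPM in LV and 58.4 CPM in WT, a call lost without LV replicate 1 (adjusted p = 0.052). ITSN1, a scaffold of endocytosis, averaged 39.2 CPM in LV and 26.4 CPM in WT, and RIPK4, a kinase of epithelial differentiation, averaged 16.8 CPM in LV and 10.1 CPM in WT. Salt-inducible kinase is represented by SIK1B and SIK1, near-identical copies that are counted as separate genes and are described with the copies below. SIK1 reached the floor through LV alone, so its direction was set by the floor.

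Of the vesicle, glycosylation and membrane insertion genes, 6 of 8 were higher and 1 was lower, with a median of 0.52. VPS26C, of the retriever complex of endosomes, averaged 83.1 ± 0.294 CPM in LV and 42.1 ± 2.69 CPM in WT (SD, n = 3 each), 0.98 apart on the log2 scale. POFUT2, a fucosyltransferase, averaged 54.9 CPM in LV and 37.9 CPM in WT. GET1, which inserts tail-anchored proteins into membranes, averaged 65.7 CPM in LV and 56.8 CPM in WT and did not pass (adjusted p = 0.067), but was called higher without WT replicate 2 at a log2 fold change of 0.15 (adjusted p = 0.00032). SLC37A1, a sugar phosphate transporter, was called lower at the edge of the threshold, with 11.9, 10.1 and 11.0 CPM in LV and 13.1, 15.7 and 12.6 CPM in WT (adjusted p = 0.046). Its call was lost without any LV library or without WT replicate 1, with adjusted p-values of 0.059 to 0.18, and with RLE factors or limma-voom (adjusted p = 0.053 and 0.052).

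Centrosome, cilium and replication genes had 5 of 6 higher and none lower, with a median of 0.64 (none was lower at an unadjusted p under 0.05, nor by DESeq2 or limma-voom). MCM3AP, which links transcription to RNA export, had 156, 150 and 155 CPM in LV and 67.5, 74.6 and 65.7 CPM in WT, a log2 fold change of 1.15 (SE 0.075, edgeR adjusted p = 3.7e-06). Its exons overlap MCM3AP-AS1 on the other strand, which was far lower, at 8.30 CPM in LV and 7.38 CPM in WT, and did not pass in all libraries but was called higher without WT replicate 2 (log2 fold change 0.22, adjusted p = 0.031). PCNT, the centrosomal scaffold pericentrin, averaged 160 CPM in LV and 113 CPM in WT. DONSON, which protects replication forks, averaged 63.2 CPM in LV and 32.1 CPM in WT.

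Cell surface and secreted epithelial genes had 4 of 5 higher and 1 lower, with a median of 0.75. Among them, IGSF5 reached the floor through LV alone and TFF2, the lower gene, through WT alone. The direction of both was thus set by the floor. PTTG1IP, a membrane glycoprotein, averaged 271 ± 6.02 CPM in LV and 173 ± 2.29 CPM in WT (SD, n = 3 each). CXADR, the coxsackievirus and adenovirus receptor of tight junctions, had 53.4, 55.9 and 60.1 CPM in LV and 36.9, 22.2 and 37.2 CPM in WT. TFF2, a secreted trefoil peptide, had 0.0957, 1.54 and 0.247 CPM in LV and 2.57, 1.67 and 1.65 CPM in WT. LV replicate 2 sat close to the WT libraries, and the call of TFF2 (adjusted p = 0.048) was lost with DESeq2 (adjusted p = 0.22) and on leaving out any library other than LV replicate 2, at 0.057 to 0.21.

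A few genes differed far more than the others. SH3BGR, on the long arm at chr21:39445855-39515506, had 29.8, 27.6 and 29.3 CPM in LV and 4.73, 4.27 and 3.91 CPM in WT, a 6.72-fold difference (log2 fold change 2.75, SE 0.098, edgeR adjusted p = 1.2e-07). IGSF5, an immunoglobulin family junction protein, had 3.24, 3.04 and 3.40 CPM in LV and 0.103, 0.0661 and 0.303 CPM in WT. PCP4, a calmodulin-binding peptide, had 1.86, 1.75 and 2.14 CPM in LV and 0.144, 0.242 and 0.0569 CPM in WT. These genes lie close together, IGSF5 at chr21:39745407-39802096 and PCP4 at chr21:39867317-39929397, all on the plus strand. The noncoding DSCR8 had 4.84, 6.01 and 5.03 CPM in LV and 0.926, 0.926 and 0.929 CPM in WT.

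IGSF5 and PCP4 reached the floor through LV alone. In all, 9 genes had a WT mean under 1 CPM and an LV mean over it, DSCR8, RUNX1 and TSPEAR among them, and had to differ to be counted here. Another 4, CYP4F29P, ANKRD20A11P, LINC01687 and TFF2, reached the floor through WT alone. Just inside the floor lay PCP4 with a mean of 1.02 CPM, CR381670.1 with 1.14 and SIK1 with 1.19, and just outside it MAP3K7CL with 0.967, MEMO1P1 with 0.951 and C21orf62-AS1 with 0.930.

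Of the 12 lower genes, 6 were protein-coding: RBM11, TFF2, SLC37A1, LRRC3, LSS and PRMT2. LRRC3, a leucine-rich repeat membrane protein, averaged 4.49 CPM in LV and 6.98 CPM in WT, a log2 fold change of -0.65 (edgeR adjusted p = 0.0050). The largest well-measured fall was that of the noncoding LINC01694 at chr21:45593654-45603056, with 3.47, 3.72 and 3.83 CPM in LV and 26.1, 27.4 and 23.8 CPM in WT, 7.02-fold lower in LV (log2 fold change -2.81, edgeR adjusted p = 1.0e-07). Its groups were widely separated, and its neighbours among the 145 genes, LINC00205 and FTCD, were fitted above 0, at 1.21 and 0.50. CYP4F29P, a pseudogene, had 0.574, 0.716 and 0.474 CPM in LV and 4.57, 5.29 and 4.89 CPM in WT. ANKRD20A11P, LINC01687, TEKT4P2 and LINC01666 make up the rest, at -2.73, -2.06, -0.79 and -0.65 on the log2 scale, and LINC01666 lost its call without LV replicate 2 or WT replicate 1 (adjusted p = 0.052 and 0.056).

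The difference extended over most of the long arm. Among the 145 genes alone, without those left out by name, the longest run of neighbours fitted above 0 held 44 genes, from MRPL39 to HLCS, over 11.4 Mb between positions 25585656 and 36990236 of GRCh38, with a median of 0.69. In 5 Mb windows, the median was 0.72 from 15 to 20 Mb (8 genes, 5 higher and 0 lower), 0.62 from 25 to 30 Mb (8 genes, 6 higher and 0 lower), 0.69 from 30 to 35 Mb (27 genes, 25 higher and 0 lower) and 0.70 from 35 to 40 Mb (25 genes, 22 higher and 0 lower). Toward the end of the chromosome it was 0.51 from 40 to 45 Mb (36 genes, 25 higher and 3 lower) and 0.51 from 45 Mb on (17 genes, 11 higher and 3 lower). The window from 20 to 25 Mb held LINC01687 alone.

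The part near the centromere was more mixed. From 5 to 10 Mb, 14 genes had 7 higher and 2 lower with a median of 0.56, and from 10 to 15 Mb, 9 genes had 3 higher and 3 lower with a median of -0.13. A run of 4 neighbours fitted below 0, CYP4F29P to RBM11, lay in the second of these windows between positions 13843133 and 14228372. The 17 genes that start below 12 Mb had 8 higher, 2 lower and 7 that did not pass (median 0.54), and the 128 beyond had 96 higher, 10 lower and 22 that did not pass (median 0.61). Genes of the first windows had low levels, with window medians of 2.15 and 2.92 CPM, against 56.6 CPM from 25 to 30 Mb. Several of the 17 genes that start below 12 Mb have near-identical copies on the long arm, described below. The values of this part may therefore hold reads of the long arm.

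WT replicate 2 differed from the other WT libraries along the chromosome. Its median log2 difference from the mean of the other WT libraries was -0.41 in both windows from 10 to 20 Mb, -0.26 from 25 to 30 Mb, -0.15 from 30 to 35 Mb, 0.18 from 40 to 45 Mb and 0.16 from 45 Mb on. The LV libraries lay at 0.68 to 0.71 above WT from 30 to 35 Mb and at 0.50 to 0.51 from 40 to 45 Mb, but were further apart from 5 to 10 Mb, at 0.46 to 0.61, and from 10 to 15 Mb, at -0.29 to 0.020. Without WT replicate 2 the window medians were 0.60 from 15 to 20 Mb, 0.51 from 25 to 30 Mb, 0.68, 0.72, 0.60 and 0.59 in the windows from 30 Mb on in order, and -0.26 from 10 to 15 Mb. PPIAP22, between 15 and 20 Mb, and RIPPLY3, between 35 and 40 Mb, were then called lower. The gap between the middle and the end of the long arm was thus smaller without that library.

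**Figure D4:**
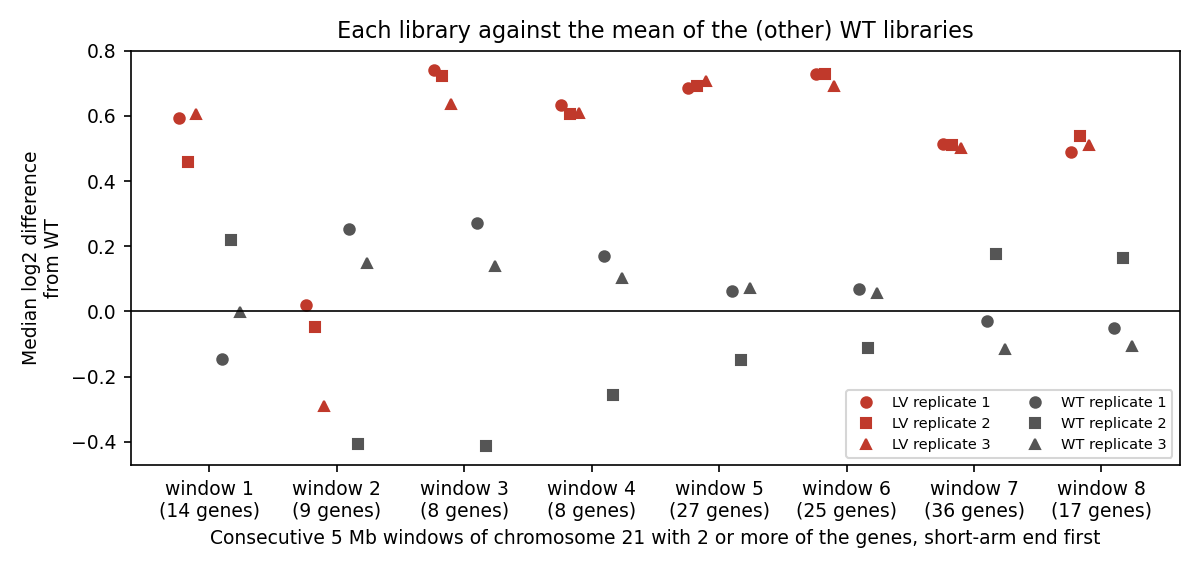
Median log2 difference of each library from WT (LV libraries in red against the mean of the WT libraries, each WT library in grey against the other WT libraries), in consecutive 5 Mb windows that hold at least 2 of the genes; window 2 is 10 to 15 Mb, and window 4 is 25 to 30 Mb since 20 to 25 Mb holds 1 gene. LV libraries lie above all WT libraries in every window other than window 2, and WT replicate 2 (squares) lies at -0.41 in windows 2 and 3 and above 0 in windows 1, 7 and 8.

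Over all 145 genes, the median log2 differences from WT were 0.596, 0.595 and 0.605 in LV replicates 1 to 3, and those of WT replicates 1 to 3 from the other WT libraries were 0.0301, -0.0317 and 0.00696. Leaving out WT replicate 2 gave 111 higher, 15 lower and 19 that did not pass among the 145, with a median of 0.59, while the background rose to 28.8% of 19864 genes called higher and 31% lower. The 104 genes called higher in all libraries were all called higher there, as were 11 of the 12 lower genes called lower, TFF2 being the exception.

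The size of the difference varied less among highly expressed genes. The distance between the quartiles of the log2 fold change was 1.10 for the 32 genes at 1 to 3 CPM, 0.60 for 24 genes at 3 to 10 CPM, 0.45 for 31 genes at 10 to 30 CPM, 0.30 for 42 genes at 30 to 100 CPM and 0.19 for 16 genes at 100 CPM or more. Their medians were 0.52, 0.51, 0.44, 0.63 and 0.63. Relative counting error is largest at the low end. The class at 1 to 3 CPM also holds the genes that reached the floor through LV alone (9) or WT alone (4), other than DSCR8. Those had to differ to be counted, so the spread of that class partly follows from the floor. The parts of counting error and of the floor were not tested. Among 84 protein-coding genes of the long arm at 10 CPM or more, 71 were higher, 3 were lower (SLC37A1, LSS and PRMT2) and 10 did not pass, with quartiles of 0.43 and 0.76. Of the 16 genes at 100 CPM or more, 14 were higher, and LSS and SUMO3 were those that were not.

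**Figure D5:**
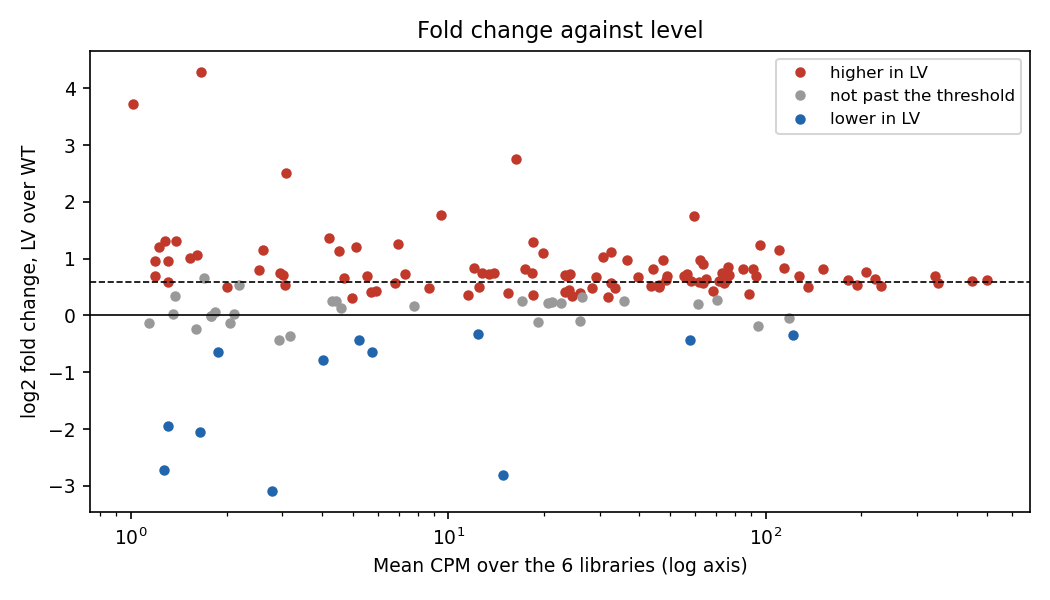
Fitted log2 fold change, LV over WT, of the 145 genes against their mean CPM over the 6 libraries (log axis), coloured by call, with a dashed line at the median of 0.59. Points spread from -3.10 to 4.29 at low levels and draw together around the dashed line at high levels.

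Per kilobase of exon length, so that genes can be set beside each other, SOD1 had the highest mean level of the protein-coding genes at 169 CPM per kb, followed by CCT8 at 134 and HMGN1 at 97.8. PTTG1IP (62.6 CPM per kb) and ATP5PF (62.4) came next. The processed pseudogene PPIAP22 was listed at 191 CPM per kb. However, 82.3% of its sequence, read in stretches of 75 bases, is shared with other genes. The largest share, 71.0%, is with PPIA on chromosome 7. It had 88.2, 89.5 and 88.5 CPM in LV and 105, 96.7 and 101 CPM in WT and did not pass (adjusted p = 0.054). Without WT replicate 2 it was called lower, at -0.22 on the log2 scale (adjusted p = 3.7e-08), as it was with limma-voom (adjusted p = 0.045) and with library size alone (adjusted p = 0.022).

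Several genes near the short-arm end of the GRCh38 sequence have near-identical copies on the long arm, and reads may be split between the copies. How reads that match both copies were counted is not given in the sources used here, and such reads may be missing. The separate values are therefore uncertain, and the sums may not hold all reads of a pair. SIK1B and SIK1, which share 91.4% of 75-base stretches, added up to 16.3 ± 1.21 CPM in LV and 5.24 ± 0.50 CPM in WT (SD, n = 3 each), a ratio of 3.11. SIK1B alone had a log2 fold change of 1.77 and SIK1 of 0.70, and the call of SIK1 was lost without LV replicate 1 (adjusted p = 0.064) or WT replicate 3 (adjusted p = 0.050). CBSL and CBS summed to 32.6 ± 1.05 CPM in LV and 19.3 ± 2.21 CPM in WT (SD, n = 3 each), a ratio of 1.69, and U2AF1L5 and U2AF1, which encode the small subunit of the splicing factor U2AF, to 5.08 ± 0.294 CPM in LV and 3.36 ± 0.503 CPM in WT, a ratio of 1.51. CBSL alone had an adjusted p of 0.011, lost without LV replicate 1 (0.051). In the role lists, the members of each of these pairs are counted as separate genes.

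Taken one by one, U2AF1L5 was higher in LV (log2 fold change 1.15) and U2AF1 was fitted at -0.24 without passing, a split that the sum does not show. FP565260.1 and PWP2 summed to a ratio of 1.61, and FP565260.6 and TRAPPC10 to 1.43. GATD3B and GATD3 summed to 39.5 CPM in LV and 33.0 CPM in WT, and GATD3B did not pass in all libraries (adjusted p = 0.11) but did without WT replicate 2 (adjusted p = 1.5e-09). FP565260.3 and ICOSLG summed to 1.70 CPM in LV and 1.97 CPM in WT, with overlapping groups, and LINC01670 and CU638689.1 to 2.25 CPM in LV and 2.21 CPM in WT. LINC01666, called lower, shares 22.6% of such stretches with CR381653.1, called higher at 0.71 on the log2 scale (adjusted p = 0.0042), and the sum of both was 5.20 ± 0.573 CPM in LV and 4.62 ± 0.492 CPM in WT (SD, n = 3 each), a ratio of 1.13. Over the 17 genes that share at least 20% of such stretches with another gene, 8 were higher, 2 lower and 7 did not pass (median 0.51); over the 128 others, 96 were higher, 10 lower and 22 did not pass (median 0.61).

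The 11 role lists hold 85 of the 145 genes. The 60 genes in no list had 34 higher, 7 lower and 19 that did not pass, with a median of 0.49. They include all 37 genes that are not protein-coding, whose median was 0.34. Exons of 36 genes overlap those of another gene with at least 0.1 CPM on the opposite strand, and of 9 on the same strand. Without the strand setting, reads of opposite-strand overlaps cannot be told apart. For overlaps on the same strand, the strand setting would not tell them apart either. EVA1C, a membrane protein in no list, had 25.7, 27.0 and 27.0 CPM in LV and 10.7, 11.3 and 10.4 CPM in WT, a log2 fold change of 1.29 (edgeR adjusted p = 2.4e-06). LCA5L averaged 6.11 CPM in LV and 2.36 CPM in WT, and its exons overlap those of GET1 on the other strand.

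Promoter windows were found for 93 of the 145 genes by symbol in the RefSeq table. Their median CpG count was 30 in 300 bases, against 14 in all 27305 windows of that length, and their median GC content was 70%, against 58.3%. GGGCGG on either strand was held by 64 windows (68.8%), against 44.6% of all windows. CCGGAAG was held by 22 (23.7%), against 10.7%, CCAAT by 26 (28.0%), against 35.7%, and TATAAA by 7 (7.53%), against 12%. By call, CCGGAAG was held by 20 of 71 windows of genes higher in LV, by 1 of 7 of genes lower and by 1 of 15 of genes that did not pass, and GGGCGG by 48, 5 and 11 of them. These are matches of letters over a set of expressed genes, set beside windows of all genes, and draw nothing about the factors that read them.

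In 8 places the windows of a pair of the genes on opposite strands overlapped. The RefSeq starts of GART and SON lie 146 bases apart, so their windows share 245 bases and the GART sequence above is also most of the SON window. Both genes were higher in LV, at 0.77 and 0.58 on the log2 scale. ATP5PF and GABPA, an ETS family factor gene (79.0 CPM in LV, 50.7 CPM in WT), were higher at 0.70 and 0.64. Exons of GART and SON overlap on opposite strands, as do those of ATP5PF and GABPA. Without the strand setting, reads may be shared within these pairs. PIGP and TTC3 were higher at 0.70 and 0.52, POFUT2 and LINC00205 at 0.54 and 1.21, URB1 and URB1-AS1 at 0.91 and 0.48, and LINC01547 and SLX9 at 0.66 and 0.49. In the other pairs, BRWD1 was higher at 0.58 beside BRWD1-AS2, fitted at -0.016 without passing, and LSS was lower at -0.35 beside MCM3AP-AS1, fitted at 0.17 without passing in all libraries. The pairs follow RefSeq starts, which can differ from those of the genes as counted. As counted, LINC00205 starts at 45293285, outside its window, while ENSG00000215447 starts inside that window, at 45288052. BRWD1 as counted, on the minus strand, starts at 39321559, also outside its window. URB1-AS1 lost its call without LV replicate 1 (adjusted p = 0.073) or WT replicate 1 (adjusted p = 0.050).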

How the data were processed

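RNA-seq gene counts of 6 libraries of 22Rv1 cells were analysed, 3 LV and 3 WT, grouped by the sample titles. Per the submitters' processing notes, the tools were Trimmomatic 0.36 for trimming, STAR 2.5.2b for alignment to GRCh38, and featureCounts from Subread 1.5.2 for counting. Their parameters, the annotation release and the strand setting were not given in the sources used here. The authors deposited raw counts per gene as whole numbers, without normalization. A deposited TPM table of the same libraries was not used. The design text speaks of another condition, not analysed here.

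Gene symbols came from a table of identifiers (98.1% matched) and kinds of gene from GENCODE 29 (99.0% matched; 144 of the 145 genes). Of the 57500 genes, the 19255 that passed filterByExpr were tested with edgeR 4.0.16 (R 4.3.3): TMM factors, robust quasi-likelihood fit, group as the only term, Benjamini-Hochberg adjustment over all genes tested and a threshold of 0.05. Values per library and group are TMM-normalised CPM; the floor, the level classes, the window levels and the levels per kb use CPM of the library total. Errors are SD over 3 libraries or SE of the fitted log2 fold change. The SE was worked out as the size of the log2 fold change over the square root of the F statistic. Library medians used log2(CPM + 0.1). The common biological coefficient of variation was 9.57%. Library totals of 28395265 to 53275252 set the precision, and levels near 1 CPM rest on few reads. The steps were tested on simulated data.

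The genes, the role lists and the tests were chosen with earlier results of these data known. Genes were named by a rule: the 10 largest and 10 smallest fold changes, up to 4 of the highest level and all 2-fold changes per list, protein-coding genes called lower, the floor's neighbours, the first and last by position, the 10 of highest level, and genes with copies. MRPS6, PKNOX1, ZBTB21, ADARB1, N6AMT1, CSTB, LTN1, RCAN1, MCM3AP-AS1, PPIAP22, RIPPLY3, the noncoding or other partners in promoter pairs, and genes named only to mark a position were named after their values were seen. Near-identical copies were found by sharing 75-base stretches of GENCODE 29 transcripts. Alternatives were RLE or upper-quartile factors, TMM factors without chromosome 21, library size alone, other filters, DESeq2 1.42.0, limma-voom (limma 3.58.1), a replicate block and leaving out each library.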

Additional observations from a re-analysis of the deposited data

How the results depend on the processing

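The number of the 145 genes called higher (104) was 103 to 107, and the number called lower (12) 11 to 13, under RLE or upper-quartile factors, TMM factors without chromosome 21, library size alone, other filters on tested genes, DESeq2, limma-voom and the replicate block. With library size alone the median was 0.54. With a floor of 5 CPM, 6 genes were called lower, and among protein-coding genes alone 6 were called lower and the median was 0.63; both use fewer genes. Leaving out each library in turn gave 93 to 111 higher, 8 to 15 lower and a median of 0.58 to 0.62. Of the 104 higher genes 89, and of the 12 lower genes 7, had their call in all 15 alternatives, and 138 of the 145 were fitted in 1 direction. Of 70 genes with a call that the naming rule took, 61 had it in every alternative. Among the genes the rule took, the sign changed for 3, none with a call: on leaving out single libraries, CR381670.1 lay between -0.36 and 0.075, FP565260.3 between -0.13 and 0.19 and LINC01670 between -0.074 and 0.21, and with library size alone FP565260.3 lay at -0.033 and LINC01670 at -0.019; the cause was not tested. Replicate numbers did not pair the libraries (correlations of deviations -0.0084, 0.0092 and 0.072); with the replicate number as a block, 103 were higher, 11 lower and the median 0.60, and SLC37A1 was not called (adjusted p = 0.066). Depth limits genes near 1 CPM most.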
